A study of Rattus norvegicus with 3 samples.

Results

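Enzymes of arginine synthesis and of the hepatic urea cycle were examined in isolated rat renal proximal tubules. All probe sets annotated to exactly 1 of the gene symbols Ass1, Asl, Arg1, Arg2, Otc, Cps1, Oat and Ddah1 were taken, whatever their signal. This gave 10 probe sets for 8 genes, out of 31042 non-control probe sets and 14217 named genes. The tubules came from male Sprague-Dawley rats, 7 to 8 weeks old, that were given 250 units of heparin 30 min before decapitation, with no other treatment or genotype in the labels. Perfusion used 10 ml of cold saline and then 10 ml of warm collagenase (2 mg/ml); the excised cortex was digested for 20 min, and tubules were separated in 42.5% Percoll. Each of 3 preparations was measured on 1 Affymetrix array (n = 3, 1 group, no control group). Whether a preparation pooled animals, and whether the preparations came from separate animals, is not stated in the labels, so the spread between arrays may be technical.

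The kidney is the main organ that turns citrulline from the intestine into arginine for the rest of the body, and the proximal tubule is the site of that conversion. Argininosuccinate synthase joins citrulline to aspartate, and argininosuccinate lyase splits the product into arginine and fumarate. In the liver the same enzymes form part of a cycle that starts with carbamoyl phosphate synthetase and ornithine transcarbamylase in mitochondria and ends with arginase, which releases urea. Where the synthase and the lyase are present with little arginase, arginine is spared from breakdown to urea.

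The genes of both arginine-forming enzymes, Ass1 and Asl, lay above the 95th percentile of every array, as did Oat and Ddah1. The other members did not: Arg1, Otc and Cps1 of the hepatic urea cycle, and Arg2, the arginase of tissues outside the liver. Arg1 stood around the array median, and Arg2, Otc and both probe sets of Cps1 lay below the median of every array. The array median was 34.9 to 37.4 signal units and the 95th percentile 1060 to 1200. Of the 10 probe sets, 5 exceeded the median on all 3 arrays, against 45.8% of all probe sets, and 4 were below it on all 3, against 45.6%, so both counts are close to the background. At the 75th percentile the count was again 5 of 10, against 23.1%. The same 5 exceeded the 95th percentile on all 3 arrays, against 4.59% of all probe sets. They include an Asl probe set of uncertain target, described below. By gene, with the probe set of highest mean signal, 4 of 8 exceeded the median, against 61.0% of named genes. The same 4 genes exceeded the 75th percentile, against 36.4% of named genes, and the 95th, against 7.90%. The line at the 95th percentile was added after the values were seen. The members thus split into a high and a low part, with Arg1 alone near the middle of all probe sets. Probe sets differ in affinity, so a signal is placed only among all signals of its own array, and members are not ranked against each other.

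The promoter windows of 2 genes with high signals and 2 with low signals are shown because base composition is what the sequences at hand can set beside the levels. They run from 250 bases before to 50 bases after the start site (RefSeq, GRCr8, 5′ to 3′), with each CpG in capitals.
Ass1 promoter, chr3:35149480-35149779, plus strand: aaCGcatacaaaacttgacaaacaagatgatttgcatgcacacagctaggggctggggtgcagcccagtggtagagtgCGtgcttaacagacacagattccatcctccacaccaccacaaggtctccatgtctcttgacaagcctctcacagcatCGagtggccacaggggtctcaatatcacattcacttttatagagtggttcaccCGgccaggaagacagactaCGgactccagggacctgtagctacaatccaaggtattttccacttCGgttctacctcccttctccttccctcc
Asl promoter, chr12:32295658-32295957, plus strand: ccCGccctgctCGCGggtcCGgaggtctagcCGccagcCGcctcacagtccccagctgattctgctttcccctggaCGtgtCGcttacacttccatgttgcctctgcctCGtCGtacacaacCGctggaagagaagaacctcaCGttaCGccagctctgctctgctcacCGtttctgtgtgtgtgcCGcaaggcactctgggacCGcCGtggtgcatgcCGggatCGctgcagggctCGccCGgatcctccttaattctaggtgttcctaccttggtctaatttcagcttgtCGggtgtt
Otc promoter, chrX:15202424-15202723, minus strand: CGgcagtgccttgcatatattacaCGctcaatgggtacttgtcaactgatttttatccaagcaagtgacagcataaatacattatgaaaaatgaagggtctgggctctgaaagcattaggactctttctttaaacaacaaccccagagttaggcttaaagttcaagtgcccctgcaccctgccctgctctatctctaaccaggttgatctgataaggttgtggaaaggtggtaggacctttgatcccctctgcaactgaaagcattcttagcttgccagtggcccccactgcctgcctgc
Cps1 promoter, chr9:76063613-76063912, plus strand: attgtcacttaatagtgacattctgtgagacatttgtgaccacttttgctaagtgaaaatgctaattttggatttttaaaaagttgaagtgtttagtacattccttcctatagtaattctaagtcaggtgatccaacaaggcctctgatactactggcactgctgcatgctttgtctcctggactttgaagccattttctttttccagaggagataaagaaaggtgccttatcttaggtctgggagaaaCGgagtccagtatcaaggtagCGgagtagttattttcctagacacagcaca
Promoter windows were matched for 6 of the 8 genes: these 4, Oat and Ddah1. The Asl window held 22 CpGs (observed over expected 0.819), that of Oat 21 (0.759) and that of Ddah1 31 (0.825). The windows of Otc and Cps1 held 2 CpGs each (0.123 and 0.174), against a median of 7 and 0.392 over 33469 promoters. The Ass1 window held 6 CpGs (0.319), below that median although the Ass1 signal was in the top 5% of its array. A high signal and a CpG-rich window therefore did not go together in every member. TATAAA, searched on both strands, was in the Ass1 window alone among the 6, and in 14.2% of all promoters. GGGCGG on either strand was in the Asl and Oat windows and in 33.1% of all promoters, and CCAAT on either strand in the Oat window and in 37.5%. A match is a description of the letters and not evidence of a bound factor.

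Ass1, the gene of argininosuccinate synthase, gave signals of 10419, 9572 and 10279 on arrays 1, 2 and 3 (mean 10090 ± 454 SD). The values were close together, with a coefficient of variation of 4.50%, and lay at the 99.9th percentile of each array. Asl, the gene of the lyase, has a pair of probe sets. The one without a shared-transcript suffix gave 1880, 1889 and 1841 (1870 ± 25.9), at a mean percentile of 97.1. This was the steadiest of the members above the median, with a coefficient of variation of 1.38%. The other, whose suffix marks transcripts in common, gave 3284, 3339 and 3600 (3407 ± 169).

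The target of that second Asl probe set is uncertain. The annotation names Asl, but the accession it lists is a RefSeq transcript of Hnrnpab, an RNA-binding protein gene. Of 7 member probe sets whose accession was in the RefSeq table, this was the only one assigned to another gene. Among all 1-gene probe sets with such an accession, 13 of 2901 (0.448%) disagreed in this way. The probe set annotated to Hnrnpab itself gave 2288, 2134 and 1699, lowest on array 3, where the disputed probe set was highest. The undisputed Asl probe set was lowest on array 3 too (1841). The order of 3 replicate arrays therefore cannot settle the target. The placement of Asl above the 95th percentile holds with either Asl probe set.

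**Figure D1:**
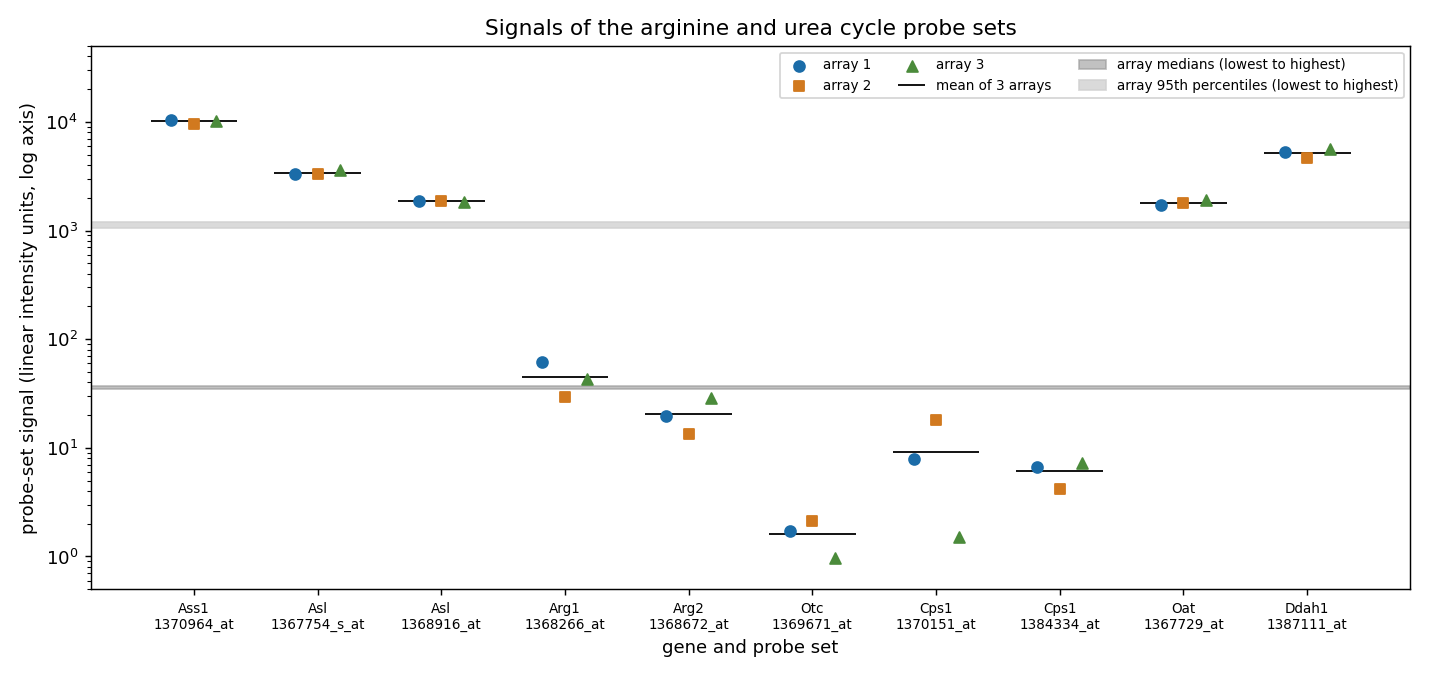
Signals of the 10 member probe sets on a log axis, with 1 point per array, a line at the mean of the 3 arrays, and bands from the lowest to the highest array median and 95th percentile. The probe sets of Ass1, Asl, Oat and Ddah1 lie above the upper band on all 3 arrays, Arg1 straddles the lower band, and Arg2, Otc and Cps1 lie under it.

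Cps1, the mitochondrial carbamoyl phosphate synthetase that feeds the urea cycle, was low with both of its probe sets. The first gave 7.97, 17.98 and 1.499 on arrays 1, 2 and 3 (9.15 ± 8.30). The second gave 6.72, 4.20 and 7.25 (6.06 ± 1.63). The probe sets ran in opposite order over the arrays, the first highest and the second lowest on array 2. Otc, which joins carbamoyl phosphate to ornithine to make citrulline, gave 1.70, 2.11 and 0.977 (1.59 ± 0.572), at a mean percentile of 6.27. The 3 control probe sets for the bacterial Trpn transcript, a reference chosen after the values were seen, spanned 0.407 to 10.3 over the arrays, with highest values of 10.3, 5.58 and 1.38 on arrays 1, 2 and 3. Set against the highest control value of its own array, Otc did not exceed it in any of 3 values and Cps1 did not in 3 of 6. Detection p-values were not used, and these genes are described as low and not as absent.

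Arg1, the cytosolic arginase of liver, gave 61.1, 29.5 and 42.9 on arrays 1, 2 and 3 (44.5 ± 15.9), above the array median on arrays 1 and 3 and below it on array 2. Its highest value was 2.07 times its lowest. Arg2, the mitochondrial arginase found in kidney and other tissues outside the liver, gave 19.4, 13.4 and 28.5 (20.5 ± 7.58), below the median on all 3 arrays. Both arginase genes were lowest on array 2, and they were highest on different arrays.

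Summed signals of cell type markers differed between the same arrays. The sums were not centred, and the 95th percentile of arrays 1, 2 and 3 also differed, at 1200, 1060 and 1096. For Arg1, the 12 hepatocyte markers measured, of 12 listed, summed to 292, 199 and 245 on arrays 1, 2 and 3. Arg1 had the same order of arrays, but so had the sums of 7 of the 11 marker lists, proximal tubule markers included, and 10 of 11 sums were lowest on array 2. Only Fga of these markers, a fibrinogen chain gene, was above the median on all 3 arrays. Albumin (Alb) gave 18.2 ± 4.54 and tyrosine aminotransferase (Tat) 1.96 ± 1.64, both below the median on every array. The 7 macrophage markers summed to 149, 112 and 133, with 1 of 7 above the median throughout, and the 3 red cell markers to 185, 90.04 and 102, with 1 of 3. Of all named genes, 61.0% were above the median throughout. Most of the red cell sum came from Hbb alone (173, 83.2 and 74.4). The part of these cell types in the Arg1 values was not tested. For Arg2, the 8 markers of the late proximal segment summed to 11312, 8550 and 9541, highest on array 1 where Arg2 was highest on array 3, with 6 of 8 above the median throughout. Of these 8 markers, 2 had the array order of Arg2: Slc7a13, an amino acid transporter (209, 73.6 and 638), and Cyp7b1 (12.4, 4.24 and 22.1). Cyp7b1 was below the median on every array, and 3 of the 8 markers had the order of Arg1 instead. Few orders are possible with 3 arrays, so a shared order says little. Segment make-up and its part in the Arg2 values were not tested. In tissue preparations of this kind, fewer cells of a type and less RNA per cell cannot be told apart.

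Oat encodes ornithine aminotransferase, the mitochondrial enzyme that moves the amino group of ornithine and so links it to glutamate and proline. It gave 1706, 1784 and 1900 on arrays 1, 2 and 3 (1797 ± 97.98), at a mean percentile of 96.96. Ddah1 encodes a hydrolase that breaks down asymmetric dimethylarginine, an inhibitor of nitric oxide synthases, and yields citrulline. It gave 5276, 4608 and 5669 (5184 ± 536), at a mean percentile of 99.4. The lowest and highest arrays of Ddah1 differed by 1.23-fold, the widest ratio among the probe sets above the 95th percentile.

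Between arrays, values were compared as log2(signal + 16) after each array was centred on its median. Of the 10 probe sets, 0 ranged over the arrays by 1 log2 unit (2-fold) or more, against 5.10% of all probe sets. The median SD over arrays was 0.13 log2 units for the members and 0.19 for all probe sets. For the 6 members with a mean above the array median it was 0.11, against 0.16 for all probe sets above it, and for the 4 others it was 0.24, against 0.24. Of those 6 members, 5 lay above the 95th percentile, so the sets compared were not matched for signal. The ranges ran from 0.03 for Otc to 0.89 for the first Cps1 probe set. That of Otc is small because the added 16 outweighs its signal. With a pseudocount of 1, 3 probe sets reached 1 log2 unit, those of Arg1 (1.04), Arg2 (1.13) and the first of Cps1 (2.83), against 31.0% of all probe sets. The spread of the low members thus depends on the scale chosen, while Ass1, Asl, Oat and Ddah1 ranged by 0.03 to 0.37 with 16 and by 0.06 to 0.40 with 1.

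**Figure D2:**
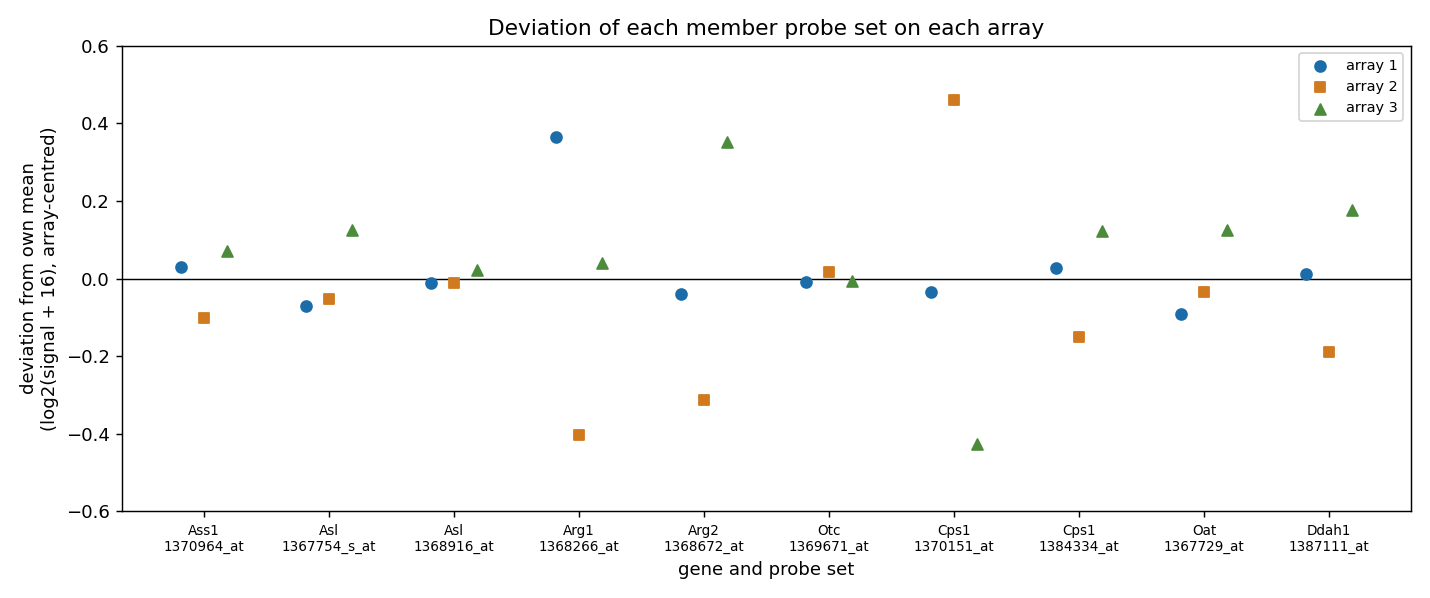
Deviation of each member probe set on each array from its own mean over the 3 arrays, in log2(signal + 16) after centring on the array median. The probe sets of Arg1, Arg2 and the first of Cps1 spread over 0.67 to 0.89 log2 units, and those of Ass1, Asl, Oat and Ddah1 over 0.03 to 0.37.

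The surrounding pathway was described with 4 lists of genes, of which 44 of 50 genes were measured and 33 of 44 exceeded the median of every array, against 61.0% of named genes. In the list of ornithine, proline and glutamate metabolism, 6 of 7 measured genes did so, with a median percentile of 98.4 against 65.95 for all named genes. Glud1, glutamate dehydrogenase, gave 4692, 3989 and 4630 on arrays 1, 2 and 3, and Aldh4a1, which oxidises the product of Oat to glutamate, gave 3144, 2904 and 3155. Prodh2, a hydroxyproline dehydrogenase, gave 3464, 3116 and 3450. The exception was Nags, which makes the obligate activator of Cps1: it gave 20.3, 22.6 and 21.8, below the median on all 3 arrays like Cps1 itself. Aldh18a1, which makes the ornithine precursor from glutamate, gave 77.0 ± 16.2, above the median on all 3 arrays but below the 75th percentile.

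Genes that use arginine for creatine and polyamines lay above the median on all 3 arrays in 11 of 13 cases, against 61.0% of named genes. The median percentile was 92.3, against 65.95 for all named genes. Gatm, which transfers the amidino group of arginine to glycine in the first step of creatine synthesis, gave 10460, 10617 and 10734. Agmat, named for agmatinase, gave 948, 929 and 956. Odc1, ornithine decarboxylase, gave 860, 765 and 643, and its inhibitor Oaz1 gave 3747, 3776 and 4098. The spermine oxidase gene Smox (15.01 ± 5.95) and Azin2, an antizyme inhibitor (27.1 ± 4.62), were below the median throughout. Paox, the polyamine oxidase gene, gave 244 ± 21.1 and was above the 75th percentile on all 3 arrays.

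In the list of nitric oxide and methylarginine genes, 7 of 11 measured genes lay above the median on all 3 arrays, against 61.0% of named genes. The median percentile was 61.5, against 65.95 for all named genes, so this list was close to the background. Agxt2, a mitochondrial aminotransferase that also removes dimethylarginines, gave 7151, 6966 and 6943. Ddah2, the other dimethylarginine hydrolase, gave 132, 151 and 79.9, above the median on all 3 arrays and below the 75th percentile on each. Genes of the nitric oxide synthases were low: Nos1 gave 23.6 ± 7.28 and Nos3 14.2 ± 6.84, both below the median on all 3 arrays. Nos2 gave 8.66, 38.6 and 2.81, above the median on array 2 only. Gch1, the first enzyme in making their cofactor tetrahydrobiopterin, gave 9.52 ± 1.65. Among the protein arginine methyltransferase genes, Prmt5 gave 300 ± 18.8 and Prmt6 57.5 ± 9.03. Proteins methylated by these enzymes release methylarginines when degraded.

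Among transporters, 9 of 13 measured genes lay above the median on all 3 arrays, against 61.0% of named genes. The median percentile was 78.03, against 65.95 for all named genes. The dibasic amino acid carriers of the proximal tubule were high on both sides of the cell. Slc7a9 (4884, 4257 and 4690) and Slc3a1 (9645, 8105 and 8653) form the apical carrier, and Slc7a7 (6147, 5725 and 5840) and Slc3a2 (4549, 4062 and 4377) form the basolateral carrier through which arginine leaves. The cationic carriers of other tissues were not: Slc7a2 gave 10.9 ± 2.55 and Slc7a3 6.33 ± 5.53, while Slc7a1 gave 20.7, 51.3 and 59.3. In mitochondria, the ornithine-citrulline carrier Slc25a15 gave 1875, 1713 and 1646 and the aspartate-glutamate carrier Slc25a13, which supplies aspartate to argininosuccinate synthase, gave 3381, 2693 and 2768. Both lay above the 75th percentile on all 3 arrays.

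**Figure D3:**
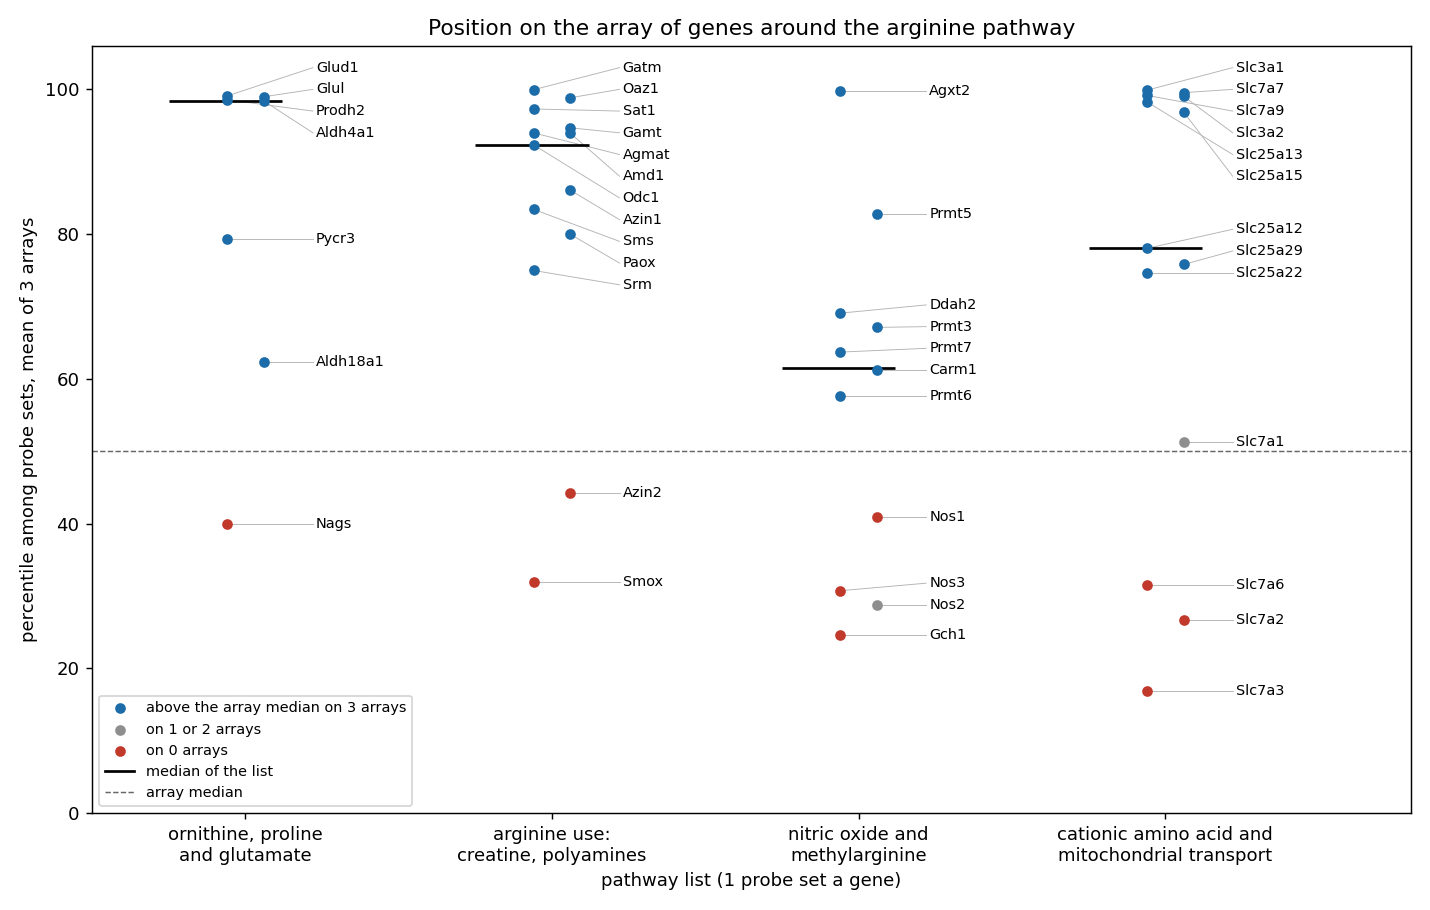
Percentile of each pathway gene among all non-control probe sets, as the mean of 3 arrays, for 4 lists, with the list median as a bar and the array median as a dashed line. Nags, Smox, Azin2, Nos1, Nos3, Gch1, Slc7a2, Slc7a3 and Slc7a6 are above the array median on 0 arrays, and 33 of 44 genes are above it on all 3.

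The identity of the tissue was checked with marker genes. All 8 proximal tubule markers, among them Lrp2 (8550 ± 570) and Slc34a1 (9616 ± 380), were above the 75th percentile on all 3 arrays, against 36.4% of named genes. Of the 6 markers of the thick limb, 3 were above that line on all 3 arrays. These were Umod with 4942 ± 656 (mean percentile 99.3), Egf with 4340 ± 331 (99.1) and Slc12a1 with 1810 ± 258 (96.95). The lowest, Cldn19, gave 58.6 ± 28.9 (56.1), and 5 of 6 were above the median throughout, against 61.0% of named genes. So were 5 of 6 endothelial markers, whose sum was 855, 1018 and 1276 on arrays 1, 2 and 3. For the other lists the counts were 2 of 3 for the distal tubule, 3 of 7 for the collecting duct, 2 of 6 for fibroblasts and 4 of 4 for the early proximal segment. Their part in the members' signals was not tested. The ratio of 3′ to 5′ control signals was 1.40 to 1.52 for GAPDH and 3.28 to 3.85 for beta-actin.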

How the data were processed

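Total RNA of 3 rat proximal tubule preparations was labelled with biotin and measured on Affymetrix arrays, per the labels' protocols. The deposited values are linear intensities per probe set; the summarisation software and scaling are not given in the sources used here. The table held 31099 probe sets, of which 57 controls were left out. Probe sets were named through the platform annotation: 20826 had 1 gene, 436 had several and 9780 had none named here. Each signal was placed among the 31042 signals of its array (percentile, median, 75th and 95th percentiles). Arrays were compared as log2(signal + 16) centred on the array median. With 1 group and 3 arrays no test was made, and the number of arrays limits the precision. Pathway and marker genes took their probe set of highest mean signal. All members were named, any pathway gene could be, and marker genes were limited to the highest, the lowest and the defining genes of a list; Slc7a13, Cyp7b1, Slc12a1 and the choice among pathway genes followed their values. The members and lists were chosen with earlier results of these data known. Python 3.11.15, pandas 2.3.3 and numpy 2.4.6 were used. Alternatives were other pseudocounts, centrings, lines, probe sets and arrays left out.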

Additional observations from a re-analysis of the deposited data

How the results depend on the processing

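Of 10 member probe sets, 5 to 6 lay above the array median when 1 array was left out; the change came from Arg1, which passed without array 2. By gene this gave 4 to 5 of 8, the median percentile of the members (74.7 with all arrays) was 73.3 to 76.4, the median SD 0.11 to 0.16 log2 units and the pathway count 33 to 34 of 44. The median percentile fell between the high and low members and so moved with the probe sets counted: it was 52.4 with only probe sets without a suffix, and also without the disputed Asl probe set, a choice made after seeing the data. It was 70.1 among probe sets with 1 gene and 68.3 without the lowest 20% of probe sets. The count above the array median on all 3 arrays was 4 of 9 without suffixed probe sets, and also without the disputed Asl probe set. The mean percentile of Arg1 was 52.4 among all probe sets, 44.0 among those with 1 gene and 40.5 without the lowest 20%. A pseudocount of 1 raised the members' median SD to 0.24 log2 units and the number ranging by 1 log2 unit or more from 0 to 3. With the line at the 95th percentile, added after seeing the data, 14 of 44 pathway genes passed, against 7.90% of named genes. Of the 56 member gene signals recomputed under alternatives, 3 moved by more than 1 SD, as did 12 of 64 percentiles and 10 of 72 deviations. All 3 moved signals were those of Asl, and 7 of the 12 percentiles moved when the lowest 20% of probe sets were left out. Many of these values could not move. Changes of probe set reach only Asl and Cps1, and quantile normalization keeps the ranks. The counts are therefore no measure of robustness. The 3 arrays of 1 group allow no comparison of conditions, and low signals carry no detection call.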

Other observations

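Several genes around the pathway gave different pictures from different probe sets, and these values were noticed after the data were seen. Gatm gave 10604 ± 137 with one probe set and 20.96, 32.8 and 57.9 on arrays 1, 2 and 3 with the other, which was above the median on array 3 only. Of the 6 probe sets of Slc25a15, the mitochondrial ornithine carrier gene, 5 were above the median on all 3 arrays, with means from 433 to 1744, and the remaining one gave 2.34 ± 0.649. Of these 5, one gave 842, 1441 and 779 and another 1301, 1379 and 1207, both highest on array 2. Azin1, an antizyme inhibitor gene, gave 398 ± 77.6, 383 ± 72.4 and 2.32 ± 0.107 with its 3 probe sets. Otc, Arg1 and Arg2 have 1 probe set each, so their values rest on that probe set alone.

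Slc7a1, the cationic carrier gene expressed in many tissues, gave 20.7, 51.3 and 59.3 on arrays 1, 2 and 3 with the highest of its 3 probe sets and 5.27, 7.81 and 12.2 with the lowest, both lowest on array 1. The other gave 32.4, 22.3 and 20.7, highest on array 1. The highest probe set ranged by 1.10 log2 units over the arrays. With Nos2 (1.47), Slc7a1 was 1 of 2 pathway genes of the 44 measured that ranged by 1 log2 unit or more. Among all probe sets 5.10% did so, so this count is close to the background.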
